A study of Bos taurus with 86 samples.

Results

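The genes described here are the pre-mRNA splicing factors and heterogeneous nuclear ribonucleoproteins (hnRNPs) on a bovine cDNA array. They were chosen by symbol alone: an array row was taken when its single gene symbol began with SF3A, SF3B, SNRP, SRSF, SFRS, HNRNP, HNRP, U2AF, PRPF or LSM. This gave 40 genes on 110 rows, out of 4452 named genes on 16416 rows. No symbol began with SF3A. Of these 40 genes, 36 were measured in at least 7 embryos of every group and were tested, and each of the 40 has the same symbol in RefSeq's table of genes for assembly ARS-UCD2.0.

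RNA of 43 single bovine embryos was hybridised against a common reference RNA on arrays with 2 colours. The groups were 15 IVF embryos, 14 IVD embryos and 14 AI embryos. IVF was read as in vitro fertilization and AI as artificial insemination, while IVD is not spelled out by the labels and serves only as a name of the group. The series title asks what in vitro maturation, fertilization and culture do to the gene expression of single embryos. The sources used here do not give the breed, sire, treatment or developmental stage. Linear amplification took 3 rounds for embryo RNA and 2 for the reference RNA, and each embryo was measured on 2 arrays with the dyes exchanged. The embryos carry their own numbers within a group. The labels of IVD embryos 12_1, 12_2, 12_3 and 12_4 start alike, and nothing says more about which embryos had a common origin, so p-values measure the spread between these embryos.

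Splicing removes introns from pre-mRNA in a large machine, the spliceosome, that is built anew on each intron from small nuclear ribonucleoproteins (snRNPs) and many other proteins. The snRNPs recognise the ends of the intron and the branch point, and the precursor RNA is then cut and joined by an active site made of RNA and held by protein. SR proteins and hnRNPs bind the pre-mRNA itself and influence which sites are used, and many of them also act on the export, stability or translation of mRNA. In early embryos these factors are of interest because the embryo changes over from maternal RNA to its own transcription.

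Values are log2 ratios of embryo to reference RNA, averaged over the 2 arrays of an embryo. Which dye is the numerator of the deposited ratios is not stated. The direction embryo over reference is only likely, because 14 of 15 tested trophectoderm markers (the outer cell layer of the blastocyst) then lay above 0, with a median log2 ratio of 2.24. KRT18 averaged 2.83, GATA3 2.54 and AQP3 4.37 over all embryos. Were the direction the opposite, all signs given here would turn and each higher count would change places with its lower count. A ratio to a reference is not an absolute level, so genes were not ranked against each other by it. In a whole embryo, fewer cells of a type and less RNA per cell cannot be told apart.

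The arrays differed between groups in ways other than gene expression. IVF embryos lacked a value in 3076.5 to 5099.5 rows (mean of an embryo's 2 arrays), IVD embryos in 1001.5 to 1871.5 rows and AI embryos in 3613 to 5713 rows. The difference between an embryo's 2 arrays after one was turned in sign is its dye bias. By this profile the embryos were divided into 3 clusters, a number that was set for the clustering. One cluster held 2 IVF, 14 IVD and 13 AI embryos, another held 11 IVF embryos and 1 AI embryo, and the last held 2 IVF embryos. Cumulus and granulosa markers, for cells that surround the oocyte, were represented by 4 tested genes of 15. Of these 4, 3 were higher in IVF than in AI (HSD3B1 by 1.03, CYP11A1 by 0.41 and CYP19A1 by 0.28 on the log2 scale), and the mean of the 4 ran from -0.79 to 0.38 over IVF embryos and from -1.32 to 0.00 over AI embryos. Of the 15 trophectoderm markers, 5 were lower, 2 higher and 8 not called in IVF against AI (median difference -0.218). DAB2 at -1.39 and SSLP1 at -1.01 lay lowest, while CGN at 0.56 and TEAD4 at 0.30 were those called higher. Against IVD, 7 were lower and 3 higher in IVF (median -0.141). The mean of the 15 markers ran from 1.74 to 2.44 over IVF embryos, from 1.58 to 3.02 over IVD embryos and from 2.10 to 2.86 over AI embryos. The part of either marker list in the results was not tested.

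Many splicing factors and hnRNPs were lower in IVF than in AI embryos. Of 36 tested genes, 18 fell and 5 rose at an adjusted p under 0.05 (limma, Benjamini-Hochberg over 6278 features), against 17.7% of all features that fell and 19.9% that rose. The median log2 difference of the 36 genes was -0.311, and that of all features was 0.041. Against IVD the split was similar in size: 19 genes were lower and 3 higher in IVF, with a median of -0.348, while 25.2% of all features were lower and 22.3% higher, with a median of -0.009. These comparisons share the IVF embryos. IVD and AI differed in both directions, with 7 genes higher and 6 lower in IVD and a median of 0.046. These counts were near the shares of all features, 25.5% higher and 21.0% lower, whose median was 0.058. When the deposited values were not centred, 14 genes were higher and 1 lower. The median was then 0.301 over these genes and 0.317 over all features, so the shift was not particular to them. The share of all features called in that setting was not counted. An F-test over the 3 groups called 27 of 36 genes (75%), against 67.1% of all features.

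**Figure D1:**
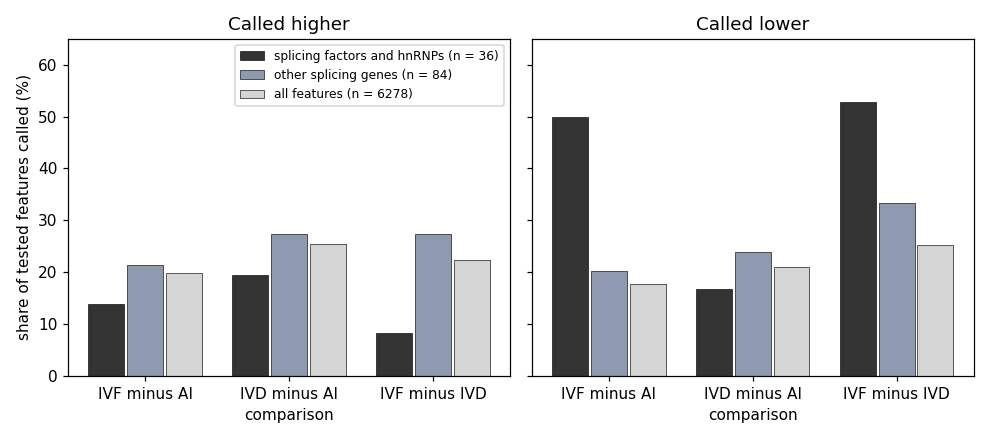
Share of tested features called higher (left) and lower (right) in 3 comparisons, in percent, for 36 splicing factors and hnRNPs, 84 other splicing genes and 6278 features. The share of members called lower was 50% in IVF minus AI and 52.8% in IVF minus IVD, against 17.7% and 25.2% of all features.

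The lower level showed in most single IVF embryos. Over the 25 genes that had a value in every embryo, the median log2 ratio of an embryo was lowest at -0.47, in the middle at 0.04 and highest at 0.34 in IVF. It was 0.18, 0.55 and 0.76 in IVD, and 0.21, 0.39 and 0.74 in AI. In 11 of 15 IVF embryos it was below the lowest AI embryo.

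With the dye-bias cluster as a block, 6 genes were called lower in IVF than in AI (HNRNPH2, HNRNPH3, LSM4, LSM8, SNRPD3 and U2AF1) and 1 higher (PRPF8). Between IVF and IVD, where the blocked difference rests on 2 IVF embryos, 6 were called lower (HNRNPA2B1, HNRNPH2, HNRNPH3, SF3B1, SF3B6 and SFRS18) and 3 higher (PRPF6, PRPF8 and SF3B3). The clones of HNRNPA2B1 disagreed in this comparison, as given below. The other calls of members in these comparisons were lost with that block. The block changed the median over the 36 genes less than the calls: it was -0.369 with the block and -0.311 without it in IVF minus AI, and -0.308 and -0.348 in IVF minus IVD. Over all features, the median with the block was 0.032 in IVF minus AI and 0.011 in IVF minus IVD. Within the cluster of 2 IVF and 13 AI embryos, 22 of 36 genes were lower in IVF, with a median difference of -0.24. Within that of 11 IVF embryos and 1 AI embryo, 31 of 36 were lower, with a median of -0.40. These values within clusters have no test of their own. Neither the calls with the block nor the counts within clusters were taken over all features.

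**Figure D2:**
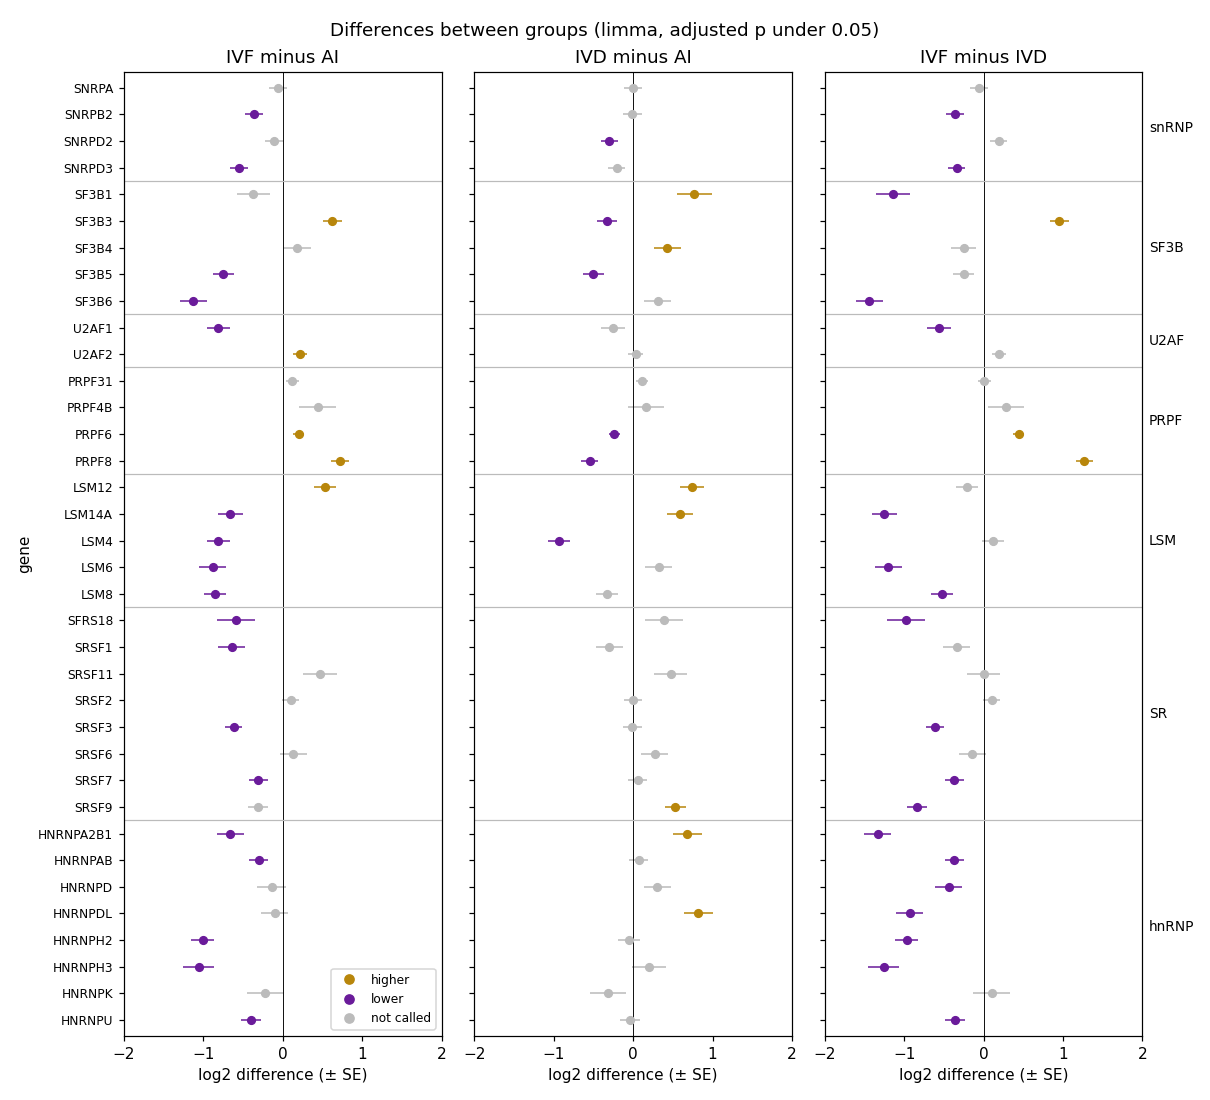
Log2 difference between group means with its standard error (limma) for 36 genes, grouped by role, in 3 comparisons. Purple points were called lower, gold points higher and grey points neither. In IVF minus AI, SF3B6 lies lowest at -1.13 and PRPF8 highest at 0.72.

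Among the proteins of the snRNPs themselves, 2 of 4 were lower in IVF than in AI and none was higher. Of all features, 17.7% were lower and 19.9% higher in that comparison, and each class holds few genes. SNRPD3 is part of the ring of Sm proteins that sits on the spliceosomal RNAs. Its log2 ratio was 0.44 in the lowest, 0.74 in the median and 1.71 in the highest IVF embryo, 0.70, 1.19 and 1.58 in IVD, and 1.00, 1.39 and 1.80 in AI. The groups overlapped, although 12 of 15 IVF embryos were lower than any AI embryo. SNRPD3 fell by 0.55 ± 0.11 (SE) in IVF against AI (limma adjusted p = 0.000101) and by 0.34 ± 0.11 against IVD (adjusted p = 0.00873). Read from the arrays with the embryo in Cy3 alone, the value against IVD was -0.10 (adjusted p = 0.505). SNRPB2, a protein of the U2 snRNP, was lower by about the same amount in both comparisons, with differences of -0.36 ± 0.11 (adjusted p = 0.0113) against AI and -0.36 ± 0.11 (adjusted p = 0.00944) against IVD. The SNRPB2 calls were lost under 4 of 13 alternatives against AI and under 3 of 14 against IVD.

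SNRPD2, also a protein of the Sm ring, was called in IVD minus AI alone. It ranged over -0.86, -0.48 and 0.15 in IVF, -1.06, -0.64 and -0.06 in IVD, and -0.68, -0.34 and 0.05 in AI (lowest, median and highest). SNRPD2 was lower in IVD than in AI by a difference of -0.30 ± 0.11 (limma adjusted p = 0.0213), which became -0.03 when the deposited values were not centred. SNRPA, the U1 snRNP protein that binds a stem loop of U1 RNA, had the highest F-test p of its class at 0.857. Its 95% interval was -0.28 to 0.17 in IVF minus AI, and -0.22 to 0.23 in IVD minus AI.

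The SF3B complex is the part of the U2 snRNP that holds the branch point. Of the 5 tested SF3B genes, 2 fell and 1 rose in IVF against AI, against 17.7% and 19.9% of all features. A class of 5 genes is too small for these counts to be read as a trait of the complex. SF3B6, a small subunit that lies at the branch-point adenosine, was lowest in IVF: -2.62, -0.96 and -0.43 in IVF (lowest, median and highest embryo), -0.11, 0.28 and 1.05 in IVD, and -0.44, 0.03 and 0.52 in AI. Each of the 15 IVF embryos was below every IVD embryo, and 14 of 15 were below every AI embryo. The difference was -1.13 ± 0.17 against AI (2.19-fold lower, limma adjusted p = 1.32e-06) and -1.44 ± 0.17 against IVD (2.71-fold lower, adjusted p = 2.36e-09). The comparison with AI gave -0.84 and an adjusted p of 0.0516 with the dye-bias cluster as a block.

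SF3B3, a large scaffold subunit of the same complex, ran the other way. Its log2 ratio was 0.26, 0.54 and 1.44 in IVF, -0.75, -0.33 and 0.12 in IVD, and -0.65, -0.01 and 0.42 in AI. All IVF embryos lay above the highest IVD embryo, and 9 of 15 above the highest AI embryo. SF3B3 rose by 0.62 ± 0.12 in IVF against AI (limma adjusted p = 5.47e-05) and by 0.95 ± 0.12 against IVD (adjusted p = 7.09e-09), and was lower in IVD than in AI with a difference of -0.33 ± 0.12 (adjusted p = 0.0187). The value against AI with the dye-bias block was 0.55, with an adjusted p of 0.0931, and the IVD minus AI value was -0.08 without centring.

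PHF5A, a further small subunit that the symbol rule does not take and that is named here after its values were seen, was lower in IVF, with differences of -0.41 ± 0.14 from AI (limma adjusted p = 0.0189) and -0.45 ± 0.14 from IVD (adjusted p = 0.00788). The PHF5A call against AI was lost under 5 of 13 alternatives, and both calls were lost with the dye-bias block, at -0.45 and -0.63.

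SF3B5, also a small subunit, was lower in both IVF and IVD than in AI. It ranged over -2.22, -1.83 and -1.14 in IVF, -2.23, -1.53 and -0.83 in IVD, and -1.47, -1.07 and -0.50 in AI, so that the median AI embryo lay above the highest IVF embryo. The differences were -0.75 ± 0.13 for IVF minus AI (limma adjusted p = 1.05e-05), -0.50 ± 0.13 for IVD minus AI (adjusted p = 0.00146) and -0.25 ± 0.13 for IVF minus IVD (adjusted p = 0.0974). Without centring the IVD minus AI value of SF3B5 was -0.25 (adjusted p = 0.255). SF3B1, the subunit that clamps the branch helix, was higher in IVD: -2.17, -0.51 and 0.22 in IVF, -0.22, 0.40 and 1.18 in IVD, and -1.76, -0.32 and 0.46 in AI. IVD embryos overlapped with both other groups. SF3B1 was higher in IVD than in AI by 0.77 ± 0.22 (adjusted p = 0.00355) and lower in IVF than in IVD, with a difference of -1.14 ± 0.21 (adjusted p = 2.29e-05). SF3B4, which binds the pre-mRNA near the branch point, was higher in IVD than in AI by 0.43 ± 0.17 (adjusted p = 0.0344), a call lost under 2 of 11 alternatives, and its IVF minus AI difference was 0.18 ± 0.17 (adjusted p = 0.404).

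The 2 subunits of U2AF, which together mark the 3′ end of the intron, were called in opposite directions in IVF against AI. U2AF1, the small subunit that contacts the AG dinucleotide, had values of -1.10, -0.05 and 0.49 in IVF, -0.54, 0.43 and 1.00 in IVD, and 0.03, 0.80 and 1.24 in AI. IVF embryos were low, with 9 of 15 below the lowest AI embryo. U2AF1 fell by 0.81 ± 0.15 in IVF against AI (limma adjusted p = 4.22e-05) and by 0.56 ± 0.15 against IVD (adjusted p = 0.00187). U2AF2, the large subunit that binds the polypyrimidine tract, ranged over -0.29, -0.11 and 0.60 in IVF, -0.51, -0.26 and 0.19 in IVD, and -0.48, -0.28 and 0.24 in AI, with wide overlap. Its rise of 0.22 ± 0.09 in IVF against AI (adjusted p = 0.0363) was small and was no longer called under 8 of 13 alternative settings.

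None of the 4 tested PRPF genes was called lower in IVF, and 2 were called higher against both AI and IVD. Among all features, 17.7% were lower and 19.9% higher against AI, and 25.2% and 22.3% against IVD. A class of 4 genes is too small for its lack of lower calls to be read as a trait of the class. PRPF8, the U5 snRNP protein that cradles the catalytic RNA, was 0.02, 0.67 and 1.17 in IVF, -0.98, -0.65 and -0.20 in IVD, and -0.75, -0.07 and 0.27 in AI. IVF and IVD embryos did not overlap at all, and 13 of 15 IVF embryos were above the highest AI embryo. PRPF8 rose by 0.72 ± 0.11 in IVF against AI (1.65-fold, limma adjusted p = 2.37e-06) and by 1.27 ± 0.11 against IVD (2.41-fold, adjusted p = 1.38e-12). In IVD it was lower than in AI, with a difference of -0.55 ± 0.11 (adjusted p = 0.000107), or -0.29 and an adjusted p of 0.162 without centring.

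PRPF6, which bridges U5 and the U4/U6 snRNP in the tri-snRNP, had the same order of groups over a smaller range: -0.38, -0.13 and 0.44 in IVF, -0.71, -0.61 and -0.25 in IVD, and -0.55, -0.31 and -0.14 in AI. Its difference was 0.44 ± 0.07 for IVF minus IVD (limma adjusted p = 1.62e-06), 0.20 ± 0.07 for IVF minus AI (adjusted p = 0.0218) and -0.24 ± 0.07 for IVD minus AI (adjusted p = 0.00584). The IVF minus AI call was lost under 9 of 13 alternatives, and without centring the IVD minus AI value was 0.01 and the IVF minus IVD value 0.19 (adjusted p = 0.239). PRPF31, a U4 snRNP protein, had differences between 0.01 and 0.12 in the 3 comparisons, and the interval of IVF minus AI was -0.05 to 0.28. For PRPF4B, a kinase of spliceosomal proteins, the difference was 0.44 ± 0.23 between IVF and AI (adjusted p = 0.133).

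All 5 tested LSM genes were called between IVF and AI, 4 of them lower, while 17.7% of all features were lower and 19.9% higher. LSM4 and LSM6 are subunits of the rings LSM2 to LSM8, which binds U6 RNA in the nucleus, and LSM1 to LSM7, which acts in mRNA decay, while LSM8 belongs to the nuclear ring alone. LSM6 was -0.98, -0.14 and 0.84 in IVF, 0.31, 1.10 and 2.26 in IVD, and 0.07, 0.75 and 1.44 in AI. It was low in IVF, with 11 of 15 embryos below the lowest AI embryo and 13 below the lowest IVD embryo. LSM6 fell by 0.88 ± 0.17 in IVF against AI (limma adjusted p = 6.62e-05) and by 1.20 ± 0.17 against IVD (adjusted p = 1.34e-07). With the dye-bias block LSM6 differed by -0.71 (adjusted p = 0.084) and -1.03 (adjusted p = 0.061).

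LSM4 was instead low in both IVF and IVD. It ranged over -0.18, 0.41 and 1.31 in IVF, -0.24, 0.27 and 1.05 in IVD, and 0.57, 1.32 and 1.56 in AI, and 8 of 14 measured IVF embryos and 12 of 14 IVD embryos were below the lowest AI embryo. The differences were -0.81 ± 0.14 for IVF minus AI (1.76-fold lower, limma adjusted p = 1.05e-05) and -0.93 ± 0.14 for IVD minus AI (1.9-fold lower, adjusted p = 4.39e-07). Between IVF and IVD the difference was 0.12, with an interval of -0.16 to 0.39. LSM8 lay at -1.07, -0.85 and 0.01 in IVF, -0.79, -0.12 and 0.39 in IVD, and -0.57, 0.07 and 1.41 in AI, and 10 of 15 IVF embryos were below the lowest AI embryo. LSM8 fell by 0.85 ± 0.14 in IVF against AI (adjusted p = 8.49e-06) and by 0.52 ± 0.14 against IVD (adjusted p = 0.0021).

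The LSM-domain proteins LSM14A and LSM12 lie outside those rings, LSM14A being a protein of cytoplasmic mRNA granules. LSM14A was -0.09, 1.05 and 1.73 in IVF, 1.80, 2.31 and 2.84 in IVD, and 1.04, 1.65 and 2.53 in AI. Every IVF embryo was below every IVD embryo, and AI embryos lay between and overlapped with both. The differences were -1.25 ± 0.16 for IVF minus IVD (limma adjusted p = 1.4e-08), -0.66 ± 0.16 for IVF minus AI (adjusted p = 0.0011) and 0.59 ± 0.16 for IVD minus AI (adjusted p = 0.00235). The value against AI was -0.42 from the Cy5-labelled embryo samples alone (adjusted p = 0.0699), and the values against AI and IVD were no longer called with the dye-bias block. LSM12 was the LSM gene that rose, with 0.58, 1.48 and 1.81 in IVF, 1.07, 1.40 and 2.18 in IVD, and 0.15, 0.78 and 1.15 in AI. Of 13 measured IVD embryos 11 were above the highest AI embryo, as were 8 of 15 IVF embryos, and LSM12 rose by 0.74 ± 0.15 in IVD (adjusted p = 8.92e-05) and by 0.53 ± 0.14 in IVF (adjusted p = 0.00383) against AI. The IVF value was 0.38 when the best measured row stood for the gene (adjusted p = 0.0607).

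**Figure D3:**
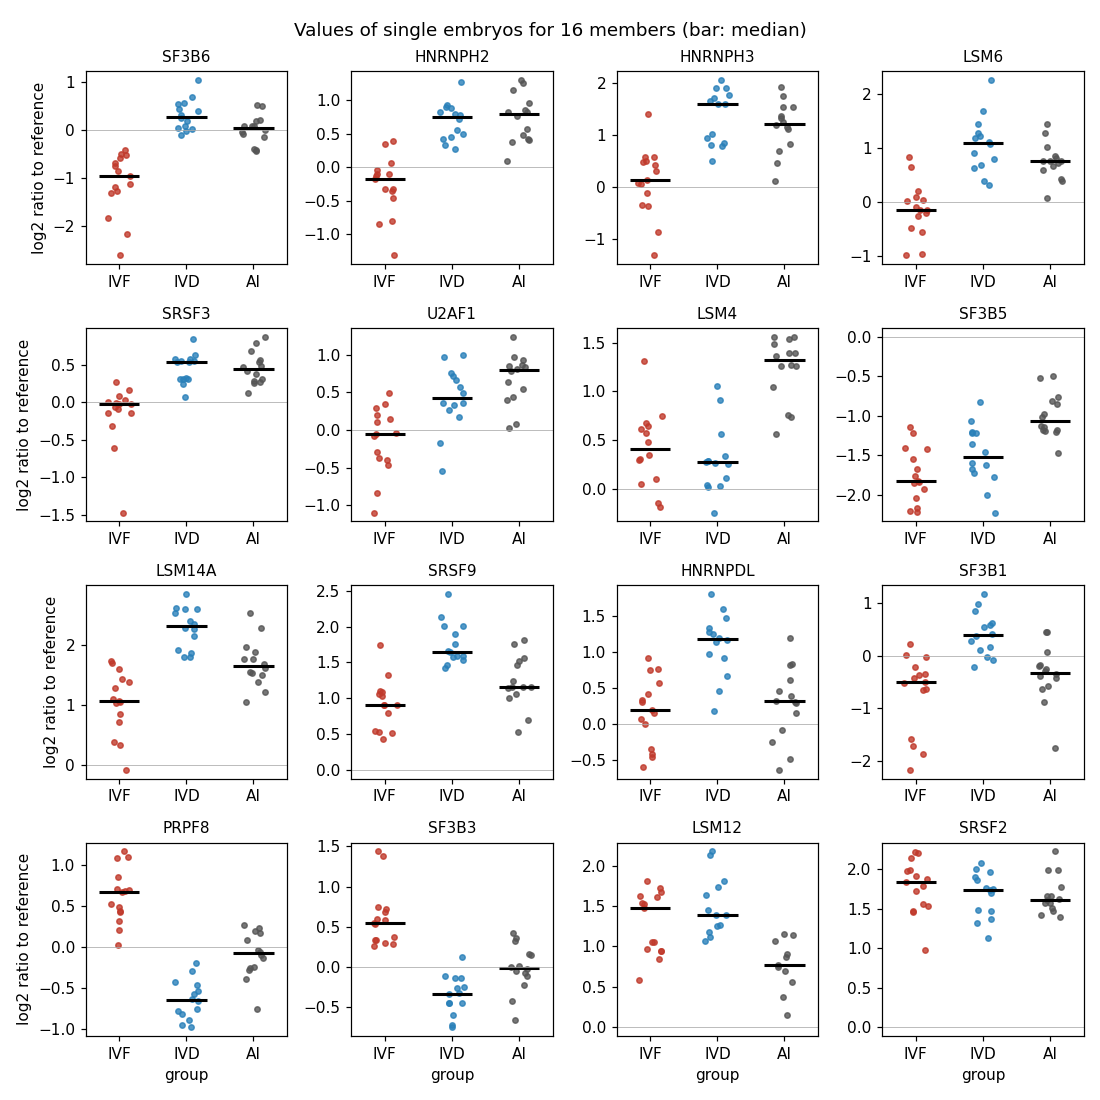
Log2 ratio to the reference in each embryo for 16 genes, with IVF, IVD and AI embryos from left to right and the group median as a bar. SF3B6, LSM14A, PRPF8 and SF3B3 show no overlap between IVF and IVD, while SRSF2 lies between 0.98 and 2.23 in all groups. The 16 genes were picked by hand from the tested members, and the share of all features without such overlap was not counted.

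Of 8 SR proteins and relatives, 4 were lower in IVF than in AI, 4 were lower than in IVD, and none was higher in either comparison. The shares of all features called lower were 17.7% and 25.2%, and those called higher 19.9% and 22.3%. SRSF3, one of the smallest SR proteins and an adaptor of mRNA export, was -1.47, -0.02 and 0.26 in IVF, 0.07, 0.54 and 0.84 in IVD, and 0.13, 0.44 and 0.87 in AI. In 13 of 15 IVF embryos it was lower than in any AI embryo. SRSF3 fell by 0.62 ± 0.11 against AI (limma adjusted p = 4.16e-05) and by 0.61 ± 0.11 against IVD (adjusted p = 2.08e-05). SRSF1, which acts in both constitutive and alternative splicing, was lower in IVF than in AI by a difference of -0.64 ± 0.17 (adjusted p = 0.0026). SRSF7 differed by -0.31 ± 0.12 from AI (adjusted p = 0.0308) and by -0.37 ± 0.12 from IVD (adjusted p = 0.00725), the call against AI being lost under 7 of 13 alternatives.

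SRSF9 was high in IVD embryos. It was 0.43, 0.91 and 1.75 in IVF, 1.42, 1.65 and 2.45 in IVD, and 0.53, 1.16 and 1.81 in AI, and 13 of 14 measured IVF embryos were below the lowest IVD embryo. The difference was -0.84 ± 0.13 for IVF minus IVD (limma adjusted p = 8.81e-07), 0.53 ± 0.13 for IVD minus AI (adjusted p = 0.000905) and -0.31 ± 0.13 for IVF minus AI (adjusted p = 0.0544). SFRS18, a relative of the SR proteins, was lower in IVF than in IVD, with a difference of -0.98 ± 0.24 (adjusted p = 0.000632), and than in AI, with -0.59 ± 0.24 (adjusted p = 0.0441), a call lost under 8 of 12 alternatives. SRSF2, SRSF6 and SRSF11 were not called in any comparison. SRSF2, which also links splicing to transcript elongation, had the highest F-test p of the class at 0.622, and its intervals were -0.12 to 0.32 for IVF minus AI, -0.23 to 0.23 for IVD minus AI and -0.13 to 0.32 for IVF minus IVD.

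Of the 8 tested hnRNPs, 5 fell in IVF against AI and 7 against IVD, and none rose in either comparison. Of all features, 17.7% fell and 19.9% rose against AI, and 25.2% and 22.3% against IVD. Both counts of hnRNPs include HNRNPA2B1, whose clones disagreed, as given below. They leave out hnRNPs with symbols outside the rule, which did not share a direction. Against AI, PCBP1 rose, SYNCRIP fell (-0.54 ± 0.16, limma adjusted p = 0.00601) and PTBP1 was not called (adjusted p = 0.916). SYNCRIP and PTBP1 are named here after their values were seen. HNRNPH2 and HNRNPH3 belong to the family that binds runs of G in pre-mRNA. HNRNPH2 was -1.31, -0.18 and 0.39 in IVF, 0.27, 0.75 and 1.27 in IVD, and 0.10, 0.79 and 1.31 in AI. It was low in IVF, where 13 of 15 embryos lay below the lowest AI embryo and 13 below the lowest IVD embryo. HNRNPH2 fell by 1.01 ± 0.14 against AI (2.02-fold lower, limma adjusted p = 2.78e-07) and by 0.97 ± 0.14 against IVD (1.96-fold lower, adjusted p = 1.64e-07). These calls held with the dye-bias block, at -1.34 (adjusted p = 0.00123) and -1.41 (adjusted p = 0.000803). HNRNPH2 is nearly identical in sequence to other members of its family, and the share of its signal that comes from them was not tested.

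HNRNPH3 gave -1.32, 0.14 and 1.41 in IVF, 0.49, 1.59 and 2.06 in IVD, and 0.12, 1.22 and 1.93 in AI. Single IVF embryos reached into the range of both other groups, while 7 of 15 were below the lowest AI embryo. HNRNPH3 fell by 1.06 ± 0.20 in IVF against AI (limma adjusted p = 7.49e-05) and by 1.26 ± 0.20 against IVD (adjusted p = 1.92e-06). HNRNPU, a nuclear scaffold protein, was lower in IVF with differences of -0.40 ± 0.12 from AI (adjusted p = 0.00868) and -0.36 ± 0.12 from IVD (adjusted p = 0.0141). The HNRNPU calls were lost under 3 of 13 and 5 of 14 alternatives, and the difference from IVD was -0.14 when the best measured row stood for the gene. HNRNPAB was lower with -0.30 ± 0.12 from AI (adjusted p = 0.0397) and -0.37 ± 0.12 from IVD (adjusted p = 0.00838). The HNRNPAB call against AI was lost under 9 of 13 alternatives and that against IVD under 4 of 14, where arrays with the embryo in Cy3 gave -0.14 (adjusted p = 0.335). HNRNPD, which binds AU-rich elements of unstable mRNAs, was lower than in IVD, with -0.44 ± 0.17 (adjusted p = 0.0314), and its difference from AI was -0.14 ± 0.18 (adjusted p = 0.543). The HNRNPD call was lost under 4 of 13 alternatives, and the difference was -0.01 with the embryo in Cy5 (adjusted p = 0.984) and -0.91 with the embryo in Cy3.

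HNRNPDL, a relative of HNRNPD, was high in IVD: -0.60, 0.21 and 0.92 in IVF, 0.18, 1.18 and 1.81 in IVD, and -0.63, 0.32 and 1.19 in AI. It rose by 0.82 ± 0.18 in IVD against AI (limma adjusted p = 0.000206), and IVF minus IVD was -0.93 ± 0.17 (adjusted p = 2.41e-05). HNRNPK, which binds C-rich RNA, was not called, had the highest F-test p of the class at 0.415, and varied widely within each group: -1.61, -0.36 and 0.38 in IVF, -1.69, -0.52 and 0.54 in IVD, and -1.43, -0.13 and 0.74 in AI. Its interval was -0.69 to 0.24 for IVF minus AI and -0.80 to 0.15 for IVD minus AI.

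**Figure D4:**
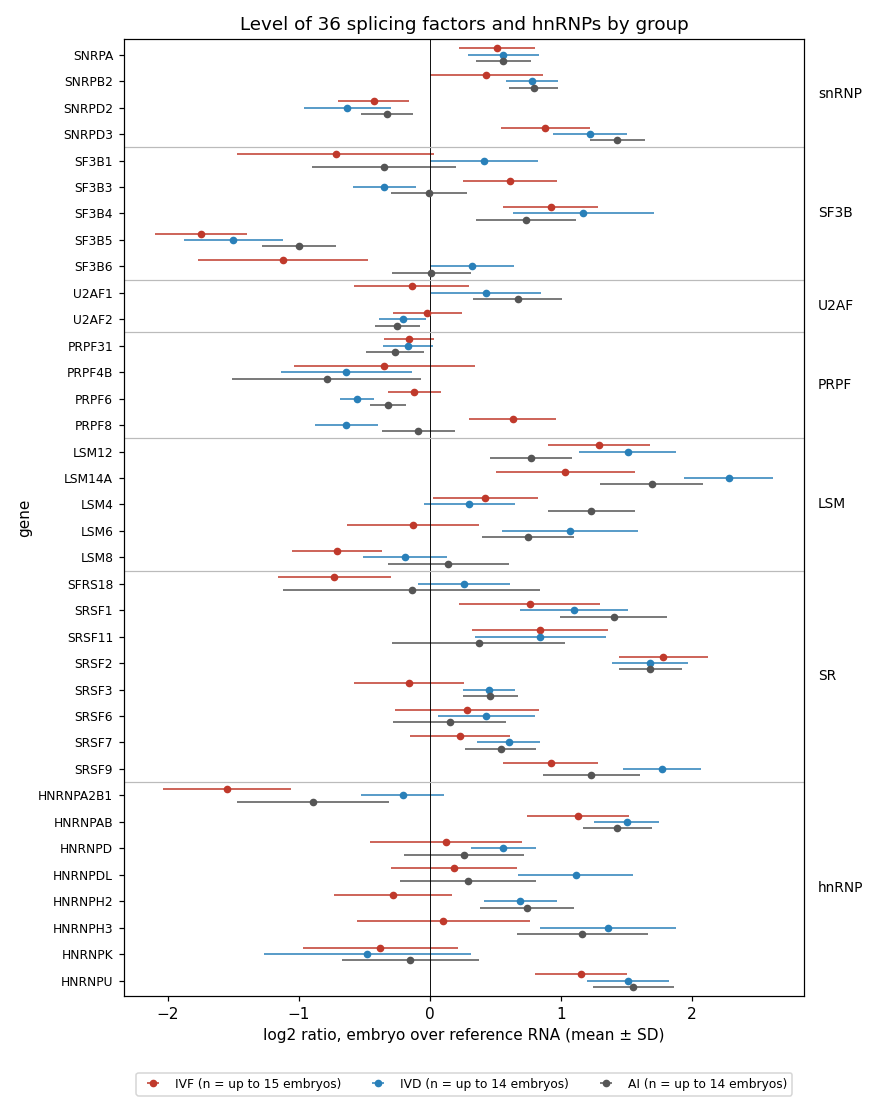
Mean log2 ratio to the reference with SD for 36 genes by role, with IVF above IVD above AI in each row. Among hnRNPs the IVF mean is below the IVD mean in 7 of 8 genes, the exception being HNRNPK.

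Most genes stood on a single cDNA clone spotted in neighbouring rows, but 8 had several clones that were measured well enough to compare, and some of these disagreed. HNRNPA2B1, a reader of RNA marks and regulator of splicing, showed it most. On its clone 1 the log2 ratio was -3.00, -2.07 and -1.30 in IVF, 0.08, 0.49 and 1.28 in IVD, and -0.85, 0.27 and 0.77 in AI, so that no IVF embryo overlapped with any other. Its rows gave -2.33 and -2.28 for IVF minus AI, with adjusted p of at most 5.01e-15 over 10757 rows tested singly with limma. On clone 2 it was -3.12, -0.68 and -0.22 in IVF, -1.56, -1.17 and -0.42 in IVD, and -3.34, -2.27 and -0.44 in AI. There the groups overlapped, and the rows were higher in IVF than in AI by 0.96 and 1.02 (adjusted p of at most 0.0062).

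The mean of both clones, which is the gene value used above, hid this. HNRNPA2B1 as a gene differed by -0.66 ± 0.17 for IVF minus AI (limma adjusted p = 0.00274), by 0.68 ± 0.18 for IVD minus AI (adjusted p = 0.00172) and by -1.33 ± 0.17 for IVF minus IVD (adjusted p = 2.8e-08). The IVF minus AI value was -2.28 when the best measured row stood for the gene. IVD minus AI had the same sign on both clones, at 0.44 and 0.91. IVF minus IVD was -2.75 on clone 1 and 0.08 on clone 2, where no row was called (limma adjusted p of at least 0.763). Which part of the transcript each clone holds was not examined here, so neither clone is preferred.

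LSM8 differed between its clones in size, not in sign. IVF minus AI was -1.27 on clone 1 (adjusted p of at most 4.56e-07 in its rows) and -0.37 on clone 2 (adjusted p from 0.0262 to 0.0958). SF3B1 gave 0.02 for IVF minus AI on clone 1 and -0.79 on clone 3, and was not called on either. The SF3B1 difference between IVF and IVD was called on both, at -0.59 and -1.68. For HNRNPDL the 3 measured clones were close to each other in IVD minus AI, at 0.84, 1.00 and 0.80, although their rows lay on both sides of 0 in IVF minus AI, between -0.25 and 0.11. PRPF31 had a clone that differed from its others, with 0.34 in IVF minus AI against 0.00 and -0.01. HNRNPU differed in sign between its clones in IVD minus AI, at -0.27 and 0.18, while both gave -0.40 in IVF minus AI.

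**Figure D5:**
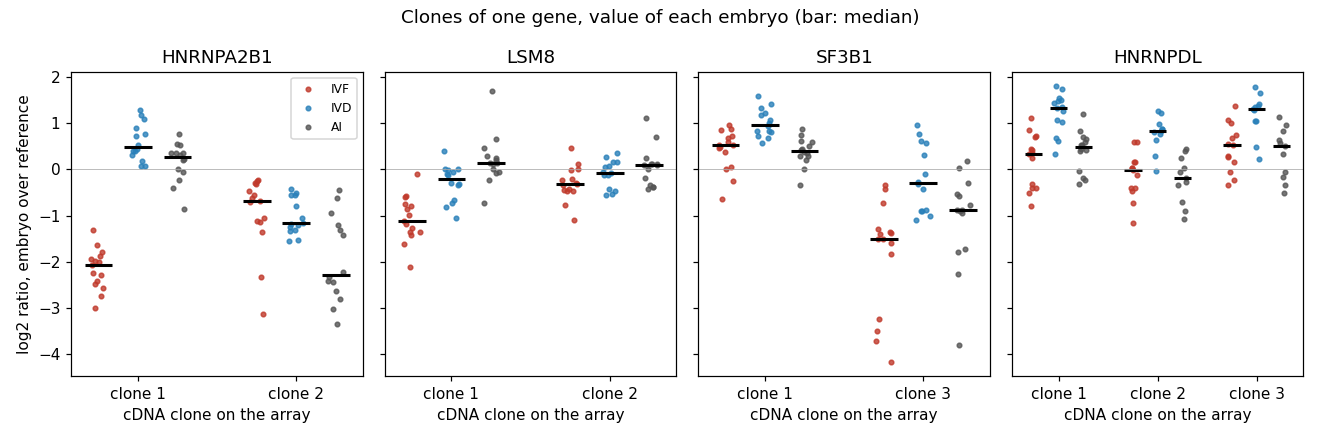
Log2 ratio to the reference in each embryo on the separate cDNA clones of 4 genes, with IVF, IVD and AI embryos from left to right within a clone and the group median as a bar. HNRNPA2B1 clone 1 is at or below -1.30 in every IVF embryo and at or above -0.85 in every other embryo, a separation that clone 2 does not show.

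Because too few embryos had a value, 4 member genes could not be tested. The most embryos measured on any row were 11 IVF, 14 IVD and 6 AI embryos for HNRNPA0, 12, 4 and 13 for HNRNPC, 3, 12 and 6 for HNRNPL, and 0, 10 and 0 for LSM14B. The sources used here do not say whether a missing value stands for a low signal.

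Other genes of the splicing machinery, 174 in a list of spliceosome components and regulators outside the symbol rule, were also counted. Their called shares were near those of all features in IVF against AI and in IVD against AI, and larger in IVF against IVD. Of 84 tested, 18 rose (21.4%) and 17 fell (20.2%) in IVF against AI, with a median of -0.039, against 19.9% and 17.7% of all features. In IVD against AI 23 rose (27.4%) and 20 fell (23.8%), with a median of 0.052, against 25.5% and 21.0% of all features. In IVF against IVD 23 were higher (27.4%) and 28 lower (33.3%), with a median of -0.122. Of all features, 22.3% were higher and 25.2% lower there, with a median of -0.009. The F-test over the 3 groups called 65 of the 84 genes (77.4%), against 67.1% of all features. The difference between this list and the genes chosen by symbol was not tested.

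Among those that fell in IVF were proteins from different places of the machine. ZCRB1, a protein of the U11/U12 snRNP of the minor spliceosome, was -0.90, 0.16 and 0.87 in IVF, 1.08, 1.70 and 2.57 in IVD, and 0.86, 1.51 and 2.32 in AI. All 15 IVF embryos lay below the lowest IVD embryo and 14 below the lowest AI embryo. ZCRB1 fell by 1.48 ± 0.16 against AI (2.79-fold lower, limma adjusted p = 2.78e-09) and by 1.78 ± 0.16 against IVD (adjusted p = 3.99e-12). BCAS2, of the PRP19 complex, fell by 1.00 ± 0.13 against AI (adjusted p = 1.6e-07) and by 1.21 ± 0.13 against IVD (adjusted p = 6.18e-10). PPIH, a cyclophilin of the tri-snRNP, fell by 1.07 ± 0.19 and FRG1 by 0.98 ± 0.17 against AI (adjusted p = 1.8e-05 and 2.09e-05, the PPIH value being -0.95 with adjusted p = 0.0783 under the dye-bias block), and FRG1 by 1.42 ± 0.17 against IVD (adjusted p = 7.19e-09). DDX5, an RNA helicase, fell by 1.15 ± 0.18 against IVD (adjusted p = 1.17e-06).

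Among the other splicing genes that rose in IVF against AI, PCBP1 is itself an hnRNP by another name (hnRNP E1). PCBP1 was 0.25, 1.05 and 1.54 in IVF, -0.36, 0.18 and 0.52 in IVD, and -0.23, 0.12 and 0.64 in AI, with 13 of 15 IVF embryos above the highest AI embryo. It rose by 0.77 ± 0.12 against AI (limma adjusted p = 1.6e-06) and by 0.77 ± 0.12 against IVD (adjusted p = 4.88e-07). ZMAT5, like ZCRB1 a protein of the U11/U12 snRNP, rose by 1.00 ± 0.22 against AI (adjusted p = 0.000435), GCFC2 by 0.89 ± 0.31 (adjusted p = 0.0198) and CASC3, of the exon junction complex, by 0.69 ± 0.17 (adjusted p = 0.00176). Against IVD, the helicase DDX23 was higher in IVF by 1.07 ± 0.14 (adjusted p = 1.81e-08), the splicing regulator RBM5 by 0.86 ± 0.21 (adjusted p = 0.000645) and DNAJC8 by 0.81 ± 0.12 (adjusted p = 3.89e-07). The calls of GCFC2 and CASC3 against AI, and those of DDX23 and RBM5 against IVD, were lost with the dye-bias block. Under it GCFC2 was 0.88 (adjusted p = 0.33) and CASC3 0.68 (adjusted p = 0.182) against AI, and DDX23 was 0.78 (adjusted p = 0.0512) and RBM5 0.42 (adjusted p = 0.53) against IVD.

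IVD embryos parted from AI most in another set of these genes. ESRP1, an epithelial splicing regulator, was 2.63, 3.31 and 3.64 in IVF, 3.38, 4.04 and 4.32 in IVD, and 2.29, 2.72 and 3.47 in AI, and 13 of 14 IVD embryos were above the highest AI embryo. It rose by 1.23 ± 0.12 in IVD against AI (limma adjusted p = 3.77e-11). GCFC2 rose by 1.76 ± 0.31 (adjusted p = 1.18e-05), the helicase DHX15 by 1.50 ± 0.50 (adjusted p = 0.0133) and the co-chaperone BAG2 by 1.32 ± 0.31 (adjusted p = 0.000936), although BAG2 gave -0.79 on the arrays with the embryo in Cy5. DHX15 ran from 1.19 with the best measured row (adjusted p = 0.0563) to 2.74 with the embryo number as a block. SNU13, which binds U4 RNA, was 0.13 or higher in every AI embryo and 0.04 or lower in every IVD embryo, and differed by -1.06 ± 0.16 in IVD minus AI (adjusted p = 4.42e-07) and by -0.96 ± 0.15 in IVF minus AI (adjusted p = 4.88e-06). SRPK2, a kinase that phosphorylates SR proteins, was lower than in AI by the same amount in IVF, with -0.86 ± 0.10 (adjusted p = 1.75e-08), and in IVD, with -0.86 ± 0.10 (adjusted p = 4.49e-09). GEMIN8, of the complex that loads Sm proteins onto RNA, differed by -1.05 ± 0.26 (adjusted p = 0.00128) and DDX23 by -0.84 ± 0.14 (adjusted p = 3.54e-06) in IVD minus AI.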

How the data were processed

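The authors deposited log2 ratios in a table of 16416 rows and 86 arrays. The sources used here do not give how spots were read, corrected and normalized, and 20.1% of cells held no value. The 16 values at a common ceiling, a log2 ratio of 16.61, were set to missing. From each array the median of the 5558 rows without a gap on any array was subtracted, since array medians ran from -2.22 to 1.06. The sign was turned where Cy3 labelled the embryo, and an embryo's 2 arrays were averaged. Rows with at least 7 embryos in every group (10757) were kept and averaged per gene symbol of the platform annotation, which gave 6278 features (3433 named genes).

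Differences were fitted with limma 3.58.1 in R 4.3.3 (all 43 embryos, empirical Bayes, two-sided, Benjamini-Hochberg over all features, threshold 0.05). The fit was also run on simulated data with independent noise and no dye-bias clusters. That run cannot show how such clusters affect the calls. Errors beside differences are SE. The number of arrays limits the precision. In the text, 3 values for a group are its lowest, median and highest embryo. How many of all features separate groups without overlap was not counted. Members and gene lists were chosen with earlier results of these data known. Named genes are, per comparison, the 6 highest and 6 lowest called members and the 4 highest and 4 lowest called other splicing genes, per role the members of lowest and highest F-test p, and members on 3 or more clones whose rows differ in sign. Further members were named to complete each role, after their values were seen. The labels do not say whether embryo numbers shared between groups pair the embryos, and the main fit did not use them as pairs. The correlation of deviations from group means between embryos of equal number ran from -0.0915 to 0.14 for IVF and AI. It ran from -0.133 to 0.0738 for IVD and AI, and from -0.196 to 0.217 for IVF and IVD. Such correlations cannot show whether these embryos shared an origin or a batch. Figures were drawn with matplotlib 3.10.9.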

Additional observations from a re-analysis of the deposited data

How the results depend on the processing

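The counts of called members, both directions together, stayed within 1.5 times of those reported under the alternatives run, with 3 exceptions. With the dye-bias cluster as a block, 7 genes were called in IVF minus AI in place of 23, and 9 in IVF minus IVD in place of 22 (the blocked fit of IVF minus IVD, and the fits without IVF embryos 1, 7 and 11, were chosen after seeing the data). With rows measured on every array alone, where fewer members were tested, IVD minus AI had 8 calls in place of 13. The cause of these changes was not tested. Counts by direction moved more. In IVF minus AI the higher calls were 2 with the best measured row and 3 with the values as given, rows measured on every array, the 2 groups alone or without IVF embryos 1, 7 and 11, in place of 5, and the lower calls were 11 with the embryo number as a block, in place of 18. In IVF minus IVD the higher calls were 8 with the embryo in Cy5, and 5 where 2 measured embryos in each group were enough for a row, in place of 3. With the dye-bias block 6 were lower in each of these comparisons, and 1 was higher in IVF minus AI. In IVD minus AI 3 were higher with rows measured on every array, in place of 7. Without IVF embryos 1, 7 and 11, which agree least with their group or between their own arrays, 19 members were called in IVF minus AI and 23 in IVF minus IVD. With the embryo number as a replicate block the counts were 16 for IVF minus AI, 12 for IVD minus AI and 18 for IVF minus IVD. Nothing in the labels says that equal numbers pair embryos, so this fit was not read as a paired design. Centring matters most for IVD minus AI: with the values as given, 14 members were higher and 1 lower (93.3% higher, against 53.8% with centring), while the median over all features was 0.317, against 0.058 with centring. In IVF minus IVD the values as given had a median of -0.594 over members and -0.266 over all features, against -0.348 and -0.009 with centring. Among named genes, 5 values changed sign where at least one of the settings made a call. PRPF6 was 0.01 in IVD minus AI with the values as given. On the arrays with the embryo in Cy5, BAG2 was -0.79 in IVD minus AI and 1.60 in IVF minus IVD, and U2AF2 was -0.24 in IVD minus AI. GEMIN8 was -0.18 in IVF minus IVD with the dye-bias block.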

Other observations

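Members varied more between IVF embryos than between embryos of the other groups. The median SD over 36 genes was 0.406 in IVF, 0.321 in IVD and 0.336 in AI, against 0.423, 0.326 and 0.399 over all features. The SD was larger in IVF than in AI for 27 of 36 genes (75%), against 56.9% of all features, and larger in IVD than in AI for 15 of 36 genes (41.7%), against 30.8%. No test of these spreads was run. SFRS18 went against this order: its SD was 0.98 in AI, where the highest embryo reached 2.36 and the median was -0.43, while its highest IVF embryo was at 0.05.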
